A study of Mus musculus with 12 samples.

Results

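Most of the genes described here carry the first steps of interferon signalling. The others are Il12rb1, of the interleukin-12 and interleukin-23 receptors, and the phosphatase gene Ptpn2, a brake on the pathway. All 10 genes were chosen by name, with earlier results of these data known. They comprised the receptor genes Ifngr1, Ifngr2, Ifnar1, Ifnar2, Il10rb and Il12rb1, the Janus kinase genes Jak1, Jak2 and Tyk2, and the phosphatase gene Ptpn2. These 10 genes, out of 55487 in the deposited count table, all passed the filter on low counts. RNA was sequenced from B16F10, a mouse melanoma line labelled wild type, after 24 h in the spent medium of macrophages grown from bone marrow (BMDM). The media differed by what the macrophages had received for 24 h beforehand. That was control medium for M0, INF-γ (the labels' spelling) at 20 ng/ml for M1, IL-4 at 20 ng/ml for M2, and medium from B16F10 cells at 75% for the group called TAM. Each of the 4 groups had 3 libraries. Whether the macrophages were washed free of cytokine or tumour medium before their own medium was taken is not stated in the labels, and neither is whether replicates were separate cultures. The p-values therefore reflect only how far these libraries vary, and that variation may be technical.

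Interferon gamma, the type II interferon, binds a receptor built from Ifngr1, the ligand-binding chain, and Ifngr2, and these chains hold Jak1 and Jak2. Type I interferons bind Ifnar1 and Ifnar2, which hold Tyk2 and Jak1. The activated kinases phosphorylate STAT proteins, and Ptpn2 removes phosphate from Jak1. Il10rb is a chain shared by the receptors of interleukin-10, interleukin-22 and the lambda interferons, and Il12rb1 is shared by the receptors of interleukin-12 and interleukin-23, and both pair with Tyk2. In melanoma cells this pathway is known for raising antigen presentation, for losses of Jak1 or Jak2 in tumours that escape T cells, and for Ptpn2 as a brake on it.

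Library totals lay between 15916756 and 20863973 counts. M0 replicate 1 stood apart. Its log2 levels correlated with those of the other M0 libraries at 0.945 and 0.948, against 0.992 to 0.993 for every other pair within a group, and the exon length of its genes, averaged with their counts as weights, was 4545 bp where the other libraries gave 5819 to 6091 bp. The common dispersion, the model's estimate of the spread between libraries, fell from 0.0324 to 0.00166 without it. All 12 libraries were kept in the fit, and values without that library are given beside the results. The 8 melanocyte markers were all tested and summed to 20810 to 21034 CPM (counts scaled to a common library size) in M0, 13979 to 14486 in M1, 19358 to 19725 in M2 and 14634 to 15471 in TAM, so that the M1 and TAM libraries lay lowest. By the edgeR test described below 5 of the 8 fell in M1, against 13.5% of all genes tested. In TAM 6 fell, against 27.2%, and in both groups 0 rose. The log2 changes were −1.41 for Slc45a2, −1.24 for Pmel, −1.15 for Tyr and −0.65 for Dct in M1 (adjusted p at most 0.000418), and −1.85 for Pmel, −1.67 for Mlana, −1.48 for Slc45a2 and −0.92 for Sox10 in TAM (adjusted p at most 0.000164). Without M0 replicate 1, 7 of the 8 fell in each group and 0 rose. There 47.1% of all genes in M1 and 66.7% in TAM were called in either direction. Of 12 macrophage markers 3 passed the filter, and Cd68 changed by −0.99 ± 0.24 in TAM (adjusted p = 0.00533). In M1 the change of Cd68 was 0.58 ± 0.22 (adjusted p = 0.0767), or 0.80 ± 0.23 without M0 replicate 1 (adjusted p = 0.00338). Fcer1g, at a mean of 0.545 CPM and named after its values were seen, was lower in both. It changed by −1.51 ± 0.42 in M1 (adjusted p = 0.0231) and −1.43 ± 0.41 in TAM (adjusted p = 0.0136). The macrophage markers summed to 3.88 to 5.76 CPM in M0, 5.33 to 5.99 in M1, 3.79 to 4.50 in M2 and 3.04 to 3.66 in TAM, and Ptprc, Adgre1, Itgam and Tyrobp had 0 counts in all 12 libraries. The 12 T and NK cell markers, of which 0 passed, summed to at most 0.174 CPM in M0, M1 and M2 and to 0.314 to 0.452 CPM in TAM, with Cd3d, Cd3e, Cd2, Ncr1, Klrb1c, Gzmb and Prf1 at 0. Over the TAM libraries Cd4 had 22 counts and Trac 1, and the other markers of this list had 0. The 6 dendritic markers summed to 9.47 to 17.4 CPM in M0, 10.6 to 14.1 in M1, 11.7 to 13.4 in M2 and 17.5 to 19.1 in TAM, with Flt3 and Itgax at 0 and Zbtb46 as the only marker that passed the filter. The part of these markers in the results was not tested.

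Promoters of 7 of the 10 genes were taken from the RefSeq table for GRCm38.p6, the assembly also called mm10. The 250 bases before each start site were searched on both strands. The other genes were left out of this search, and their absence from that table is not claimed. The letters TTCNNNGAA, the consensus bound by STAT dimers and known as the gamma-activated sequence (GAS), occurred in 7.02% of 32851 windows of that length. Among the 7 promoters they occurred in that of Ifnar2 alone, where they began 214 bases before the start site. The core of the interferon-stimulated response element, GAAA repeated after any 2 bases, occurred in 2.98% of all windows and in 0 of the 7. The GC box GGGCGG, found in 32.7% of windows, was present in every one of the 7 except Ifnar2, and CCAAT, found in 33.8%, in Jak1, Tyk2, Ifngr1 and Ifngr2. A match is a description of the letters in this window and not evidence of binding. Ifnar2 and Ifnar1 are printed because they encode partner chains with different levels in M1 medium, and Jak2 as a kinase gene that was higher there, all from 5′ to 3′, with capitals for the GAS letters. The windows lie on the plus strand at chr16:91372533-91372782 for Ifnar2, chr16:91484965-91485214 for Ifnar1 and chr19:29251553-29251802 for Jak2.
Ifnar2: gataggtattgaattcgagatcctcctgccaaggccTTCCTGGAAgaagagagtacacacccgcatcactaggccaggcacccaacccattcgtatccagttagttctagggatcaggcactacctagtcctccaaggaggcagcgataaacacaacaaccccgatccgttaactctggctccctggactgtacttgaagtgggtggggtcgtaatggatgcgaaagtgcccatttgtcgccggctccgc
Ifnar1: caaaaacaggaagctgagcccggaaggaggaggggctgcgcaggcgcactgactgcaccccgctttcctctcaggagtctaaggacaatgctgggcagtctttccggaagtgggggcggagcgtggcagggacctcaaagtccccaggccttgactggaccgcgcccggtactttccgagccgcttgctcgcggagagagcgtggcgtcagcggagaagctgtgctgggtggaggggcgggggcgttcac
Jak2: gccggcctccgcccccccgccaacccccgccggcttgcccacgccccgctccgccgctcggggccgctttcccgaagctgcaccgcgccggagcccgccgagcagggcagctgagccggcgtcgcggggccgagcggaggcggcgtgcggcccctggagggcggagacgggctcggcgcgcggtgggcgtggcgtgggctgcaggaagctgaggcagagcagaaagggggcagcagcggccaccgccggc

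M1 medium raised the kinase genes and split the receptor genes. Jak1, Jak2, Tyk2 and Ptpn2 rose together with Ifnar2 and Il12rb1, Il10rb fell, and the chains of the interferon gamma receptor and Ifnar1 were not called. That gave 7 of 10 genes called at an adjusted p under 0.05 by edgeR's quasi-likelihood test with Benjamini-Hochberg adjustment, 6 higher and 1 lower, against 25.7% of the 14591 genes tested, 12.2% higher and 13.5% lower. The median log2 change was 0.35 over the 10 genes and −0.02 over all genes tested. Because the genes were chosen with earlier results of these data known, these shares are a description and not a test of the set. For 7 of the 10 the M1 and M0 libraries did not overlap, against 42.3% of all genes. The calls numbered 9 of 10 without M0 replicate 1, 7 higher and 2 lower, against 47.1%, with Ifngr2 added as higher and Ifnar1 as lower. With only the M0 and M1 libraries in the fit, Jak1, Jak2, Tyk2 and Ptpn2 lost their calls at log2 changes no smaller than with 12 libraries. In bulk RNA a change in RNA per cell and a change in the share of cells that express the gene cannot be told apart.

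In TAM Il12rb1, Jak1 and Ptpn2 rose, Ifngr2, Il10rb and Tyk2 fell, and Ifngr1, Ifnar1, Ifnar2 and Jak2 were not called. These 6 of 10 genes stood against 50.5% of genes tested, 23.3% higher and 27.2% lower, so the 10 were called about as often as genes at large. The median log2 change was 0.03, against −0.02 over all genes, and the groups did not overlap for 6 genes, against 58.9%. All 10 were called without M0 replicate 1, 5 higher and 5 lower, against 66.7%. The rise of Jak1 was the least certain of these calls with 12 libraries, since leaving out any M1, M2 or TAM library gave an adjusted p between 0.0583 and 0.0984. With only the M0 and TAM libraries in the fit, Jak1 (adjusted p = 0.162), Ifngr2 (0.101) and Il12rb1 (0.0529) lost their calls at log2 changes of 0.59, −0.36 and 1.37.

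M2 medium gave 0 calls among the 10 genes and 0% among all genes tested by edgeR. At an unadjusted p under 0.05 there were 2 of the 10, Il10rb and Il12rb1, and 980 of the 14591 genes. DESeq2 and limma-voom also called 0 of the 10, but the share of all genes they called is not given here. The median log2 change was 0.02, against 0.00 over all genes. Il10rb and Ptpn2 had M2 libraries below all M0 libraries, 2 of 10 genes that did not overlap, against 12.3%. Il12rb1 was called higher without M0 replicate 1, 1 of 10 genes against 0.341% of genes tested. The comparisons of M1, M2 and TAM with M0 share the M0 libraries, so that any library of M0 enters all of them.

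**Figure D1:**
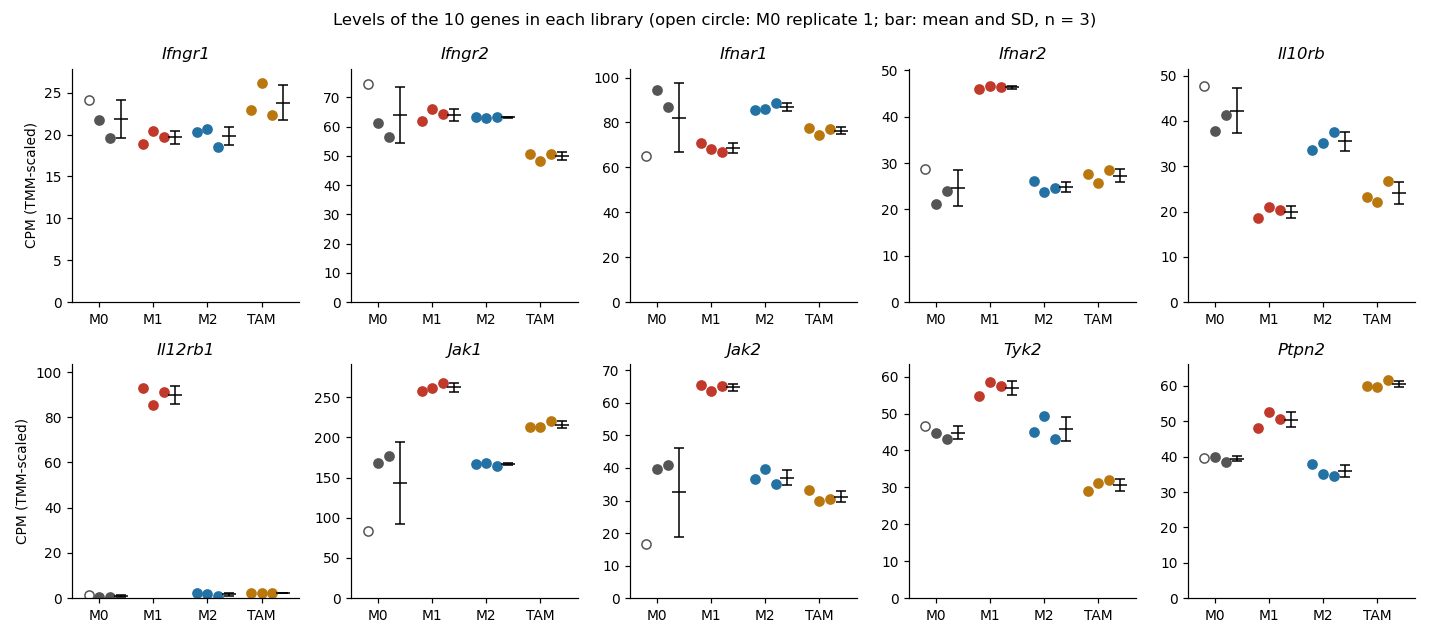
Level of each gene in each library, in CPM after TMM scaling, by group on the x axis. Points are libraries, the open circle is M0 replicate 1, and bars are the mean and SD of 3 libraries. Ifnar2 and Jak1 were highest in all M1 libraries, Ptpn2 in all TAM libraries, and M0 replicate 1 lay far below the other M0 libraries for Jak1 (84.1 CPM) and Jak2 (16.8 CPM).

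Among the receptor chains, Ifnar2 lies on chromosome 16 (91372783 to 91405589, plus strand, mm10) and encodes the high-affinity chain of the type I receptor, of which membrane-bound and soluble forms are known that gene counts do not separate. It stood at 28.7, 21.1 and 24.0 CPM in the M0 libraries, 46.0, 46.7 and 46.3 in M1, 26.1, 23.8 and 24.7 in M2, and 27.6, 25.7 and 28.6 in TAM. All M1 libraries lay above all others, and the other 3 groups overlapped. The rise in M1 over M0 was 1.88-fold, a log2 change of 0.91 ± 0.11 (SE, adjusted p = 0.000144), or 1.07 ± 0.08 without M0 replicate 1. TAM and M0 differed by 0.15 ± 0.11 (adjusted p = 0.283), or 0.26 ± 0.08 without that library (adjusted p = 0.00359). M1 exceeded TAM, the next group in order, by 1.70-fold (adjusted p = 0.000223).

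Ifnar1, the partner chain (chromosome 16, 91485238 to 91507441, plus strand), did not follow Ifnar2. Its levels were 65.0, 94.4 and 86.9 CPM in M0, 70.9, 68.2 and 66.9 in M1, 85.4, 86.0 and 88.8 in M2, and 77.8, 74.4 and 77.0 in TAM. M0 replicate 1 was the lowest of the 12 libraries and the other M0 libraries were among the 3 highest with an M2 library, so the verdict on this gene turned on it. The log2 change in M1 was −0.26 ± 0.12 with all libraries (adjusted p = 0.137) and −0.36 ± 0.05 without it (adjusted p = 8.43e-08). In TAM it was −0.10 ± 0.12 (adjusted p = 0.489), or −0.25 ± 0.05 without it (adjusted p = 3.81e-05). The order of means was M2, M0, TAM and M1, and no neighbours in that order differed by the test with 12 libraries.

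Ifngr1, which encodes the chain that binds interferon gamma (chromosome 10, 19591949 to 19610229, plus strand), had the smallest ratio of highest to lowest group mean of the 10. It stood at 24.1, 21.8 and 19.6 CPM in M0, 18.9, 20.4 and 19.7 in M1, 20.3, 20.6 and 18.5 in M2, and 22.9, 26.2 and 22.3 in TAM. The M1 and M2 ranges overlapped that of M0, and TAM lay above M1 and M2 without overlap. The log2 change was −0.15 ± 0.11 in M1 (adjusted p = 0.325) and 0.12 ± 0.11 in TAM (adjusted p = 0.351), and no neighbours in the order TAM, M0, M2 and M1 differed. Without M0 replicate 1 the TAM change was 0.20 ± 0.09 (adjusted p = 0.0466).

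Ifngr2, the second chain of the interferon gamma receptor (chromosome 16, 91547072 to 91565623, plus strand), was lower in TAM. It stood at 74.7, 61.1 and 56.4 CPM in M0, 61.8, 65.9 and 64.4 in M1, 63.3, 63.1 and 63.4 in M2, and 50.6, 48.4 and 50.8 in TAM. Every TAM library lay below the other 9. The fall against M0 was 1.28-fold, a log2 change of −0.36 ± 0.10 (adjusted p = 0.0135), or −0.24 ± 0.06 without M0 replicate 1. The change in M1 was −0.00075 ± 0.10 (adjusted p = 0.997), or 0.17 ± 0.06 without that library (adjusted p = 0.0168), where M0 replicate 1 held the highest level of the 12.

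Il10rb, the shared chain (chromosome 16, 91406164 to 91425834, plus strand), was the receptor gene called lower in both M1 and TAM with 12 libraries. Its levels were 47.7, 37.9 and 41.4 CPM in M0, 18.5, 21 and 20.4 in M1, 33.7, 35.1 and 37.7 in M2, and 23.3, 22.1 and 26.8 in TAM. The groups stood in the order M0, M2, TAM and M1 without overlap between any neighbours. The fall was 2.12-fold in M1, a log2 change of −1.08 ± 0.12 (adjusted p = 4.93e-05), and 1.76-fold in TAM, −0.82 ± 0.11 (adjusted p = 0.000155). Of the steps in that order only M2 to TAM passed the test with 12 libraries (adjusted p = 0.0022), with 0.535 for M0 to M2 and 0.0847 for TAM to M1. The changes were −0.95 and −0.73 without M0 replicate 1, and TAM to M1 passed as well (adjusted p = 0.0102).

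Il12rb1 (chromosome 8, 70808449 to 70821424, plus strand) encodes the chain that the interleukin-12 and interleukin-23 receptors share. It was the gene with the largest change of the 10. Its counts were 29, 8 and 14 in the M0 libraries, 1785, 1473 and 1837 in M1, 47, 34 and 20 in M2, and 46, 48 and 49 in TAM. In CPM these were 0.929 ± 0.601 in M0 (SD, n = 3), 89.9 ± 3.86 in M1, 1.73 ± 0.660 in M2 and 2.42 ± 0.0366 in TAM. The M1 libraries lay far above all others, and the TAM libraries above all M0 libraries. The fitted rise in M1 was 95.9-fold, a log2 change of 6.58 ± 0.33 (adjusted p = 9.2e-08), or 7.26 ± 0.16 without M0 replicate 1, whose 29 counts were the most of any M0 library. In TAM it was 1.37 ± 0.36 (adjusted p = 0.00805), or 2.00 ± 0.29 without it. In M2 it was 0.89 ± 0.37 (adjusted p = 0.535), or 1.54 ± 0.32 without it (adjusted p = 0.00691), and these low levels rest on few counts. The partner genes Il12rb2 and Il23r, needed for the complete interleukin-12 and interleukin-23 receptors, did not pass the filter, with 0 and 1 counts summed over the M1 libraries.

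**Figure D2:**
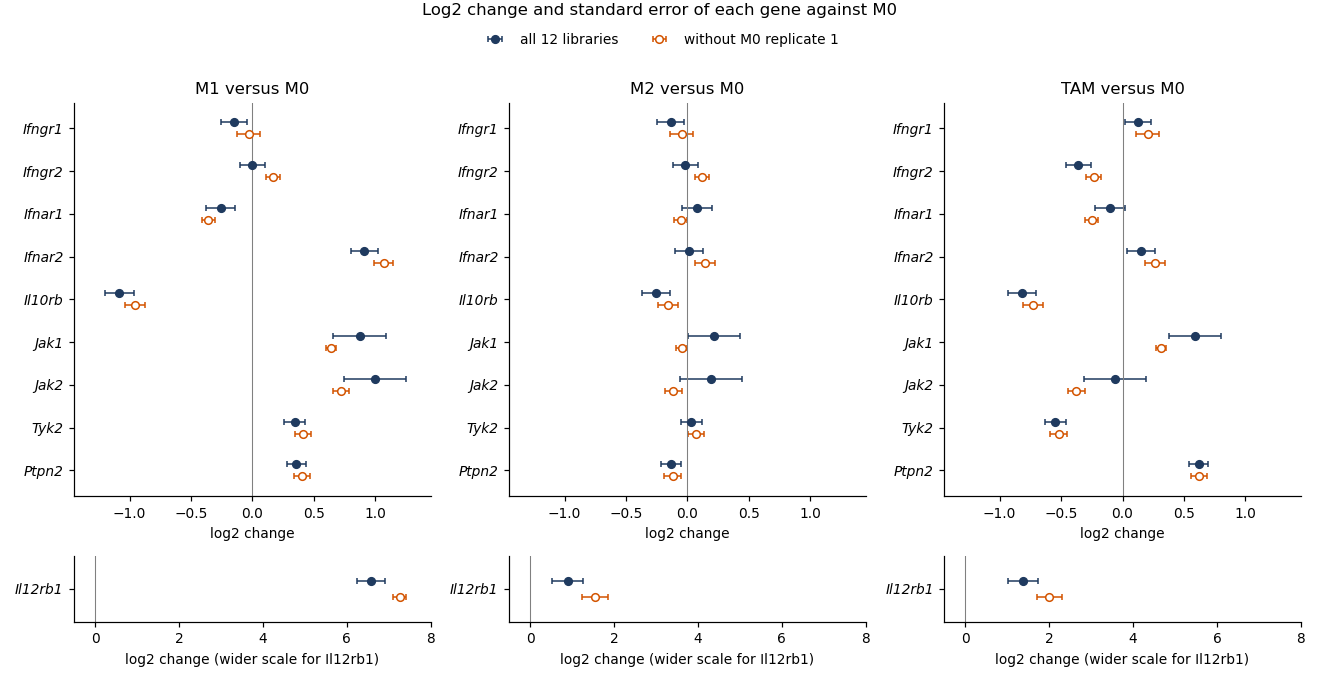
Log2 change against M0 (x axis) with its standard error for each gene, in M1, M2 and TAM. Filled points use all 12 libraries and open points leave out M0 replicate 1. Il12rb1 has its own wider axis. Error bars narrow without that library, and Jak2 in TAM moves from −0.06 to −0.38.

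The 3 kinase genes all rose in M1 in the fit of 12 libraries, and in TAM Jak1 rose, Tyk2 fell and Jak2 was not called. With only the M0 and M1 libraries in the fit none of the 3 was called, at log2 changes of 0.91 for Jak1 (adjusted p = 0.119), 1.04 for Jak2 (adjusted p = 0.127) and 0.39 for Tyk2 (adjusted p = 0.104). Jak1, which serves both interferon receptors (chromosome 4, 101152367 to 101265282, minus strand), stood at 84.1, 168.2 and 177.3 CPM in M0, 257.6, 261.3 and 267.8 in M1, 167.1, 167.7 and 164.9 in M2, and 213.5, 213.0 and 220.7 in TAM. The M1 libraries were the highest, the TAM libraries lay between them and all others, and M0 replicate 1 stood far below every other library. The log2 change was 0.87 ± 0.21 in M1 (adjusted p = 0.0130) and 0.59 ± 0.21 in TAM (adjusted p = 0.0389). Without M0 replicate 1 these were 0.64 ± 0.04 (adjusted p = 1.41e-18) and 0.31 ± 0.04 (adjusted p = 5.41e-09). M1 and TAM did not differ by the test with 12 libraries, −0.28 ± 0.21 for TAM against M1 (adjusted p = 0.316), and did without M0 replicate 1, −0.32 ± 0.04 (adjusted p = 4.65e-11).

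Jak2, the kinase held by Ifngr2 (chromosome 19, 29251828 to 29313080, plus strand), stood at 16.8, 39.7 and 41.0 CPM in M0, 65.6, 63.6 and 65.3 in M1, 36.6, 39.6 and 35.0 in M2, and 33.2, 30.0 and 30.4 in TAM. Only in M1 did all libraries lie above those of every other group. The log2 change there was 1.00 ± 0.25 (adjusted p = 0.0156), or 0.72 ± 0.07 without M0 replicate 1. In TAM it was −0.06 ± 0.25 (adjusted p = 0.864), or −0.38 ± 0.07 without it (adjusted p = 4.98e-06). The TAM libraries lay below the other M0 libraries and above M0 replicate 1, so the sign and size of the TAM change rested on that library.

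Tyk2, the kinase held by Ifnar1, Il10rb and Il12rb1 (chromosome 9, 21104068 to 21131243, minus strand), moved in opposite directions in the M1 and TAM groups. It stood at 46.6, 44.8 and 43.1 CPM in M0, 54.8, 58.4 and 57.4 in M1, 44.9, 49.4 and 43.2 in M2, and 28.9, 31.2 and 32.0 in TAM. M1 lay above and TAM below all other libraries, and here M0 replicate 1 was close to the rest of its group. The rise in M1 was 1.27-fold, a log2 change of 0.34 ± 0.09 (adjusted p = 0.0145), and the fall in TAM was 1.46-fold, −0.55 ± 0.09 (adjusted p = 0.000371). They were 0.41 ± 0.07 and −0.52 ± 0.07 without M0 replicate 1. The rise lost its call without M1 replicate 2 (adjusted p = 0.0533) or M1 replicate 3 (adjusted p = 0.0526). TAM against M1, the direct test between them, gave −0.89 ± 0.09 (adjusted p = 1.09e-05).

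Ptpn2, the phosphatase gene (chromosome 18, 67665511 to 67724595, minus strand), was highest in TAM. It stood at 39.7, 39.9 and 38.6 CPM in M0, 48.2, 52.6 and 50.6 in M1, 37.9, 35.2 and 34.7 in M2, and 60.1, 59.8 and 61.6 in TAM. The groups stood in the order TAM, M1, M0 and M2 without overlap between neighbours, and M0 replicate 1 lay between the other M0 libraries. The log2 change was 0.62 ± 0.08 in TAM (adjusted p = 7.06e-05) and 0.36 ± 0.08 in M1 (adjusted p = 0.00683), with 0.62 and 0.40 without M0 replicate 1. The M1 call was lost with only the M0 and M1 libraries in the fit (0.40, adjusted p = 0.0962). TAM exceeded M1 by 0.26 ± 0.08 (adjusted p = 0.0182), a call that was lost when M1 replicate 1 or 3, or any TAM replicate, was left out (adjusted p from 0.0674 to 0.118). M0 and M2 differed by −0.13 ± 0.08 (adjusted p = 0.535).

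Set directly against each other, TAM and M1 differed in 6 of the 10 genes, with Ptpn2 higher in TAM and Ifngr2, Ifnar2, Il12rb1, Jak2 and Tyk2 lower, against 43% of genes tested. The libraries did not overlap for all 10, against 73.2% of genes. Without M0 replicate 1, which enters this comparison through the shared estimate of the spread, all 10 were called, against 70.1%. Il12rb1 was 37.1-fold lower in TAM than in M1, a log2 change of −5.21 ± 0.30 (adjusted p = 1.71e-07), and Jak2 2.08-fold lower, −1.06 ± 0.25 (adjusted p = 0.00606). TAM and M2 differed in 4 genes, Ptpn2 higher and Ifngr2, Il10rb and Tyk2 lower, against 43.2%, or 9 genes without M0 replicate 1, against 69.5%. The libraries did not overlap for 8 genes, against 72.6%. Ptpn2 was 1.68-fold higher in TAM than in M2 (adjusted p = 1.8e-05) and Tyk2 1.49-fold lower (adjusted p = 0.000279). M1 and M2 differed in 5 genes, with Ifnar2, Il12rb1, Tyk2 and Ptpn2 higher in M1 and Il10rb lower, against 17.2%, or 8 without M0 replicate 1, against 48.3%. The libraries did not overlap for 8 genes, against 55.2%. Jak1 and Jak2 stood at 0.65 ± 0.21 and 0.81 ± 0.25 above M2 on the log2 scale and narrowly missed the threshold (adjusted p = 0.0599 and 0.0506), or passed it without M0 replicate 1 at 0.69 and 0.84.

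Levels of different genes were compared as CPM per kb of merged exon. In M0 the highest of the 10 were Jak1 at 19.8 ± 7.11 CPM per kb (SD, n = 3), or 23.9 without M0 replicate 1, and Ifngr2 at 17.0 ± 2.53, and the lowest was Il12rb1 at 0.226 ± 0.146. In M1 Jak1 led at 36.3 ± 0.709, followed by Il12rb1 at 21.9 ± 0.940 and Ifngr2 at 17.0 ± 0.548, while Il10rb, at 5.24 ± 0.346, had become the lowest. In TAM Jak1 stood at 29.9 ± 0.595 and Ptpn2 at 19.4 ± 0.296, above Ifngr2 at 13.3 ± 0.345. Jak1 was first in these groups with either length, but the places below it depended on the length. With the longest transcript Ifnar1 stood above Ifngr2, at 21 against 17.3 in M0, 17.6 against 17.3 in M1 and 19.5 against 13.5 in TAM, and in M1 Ptpn2 at 18.9 came next after Il12rb1. Without M0 replicate 1 the M0 levels of Ifngr2 and Ifnar1 per kb of merged exon were 15.6 and 15.3. Ifngr2 exceeded Ifngr1 in every library. Their ratio was 2.21 ± 0.114 in M0, 2.46 ± 0.0175 in M1, 2.42 ± 0.146 in M2 and 1.60 ± 0.173 in TAM, and each TAM library (1.67, 1.40 and 1.72) lay below all others.

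The type I receptor chains had their highest ratio in M1. The ratio of Ifnar2 to Ifnar1 per kb was 0.787, 0.398 and 0.493 in the M0 libraries, 1.16, 1.22 and 1.23 in M1, 0.545, 0.494 and 0.496 in M2, and 0.634, 0.616 and 0.662 in TAM. All M1 libraries lay above the rest, with M0 replicate 1 the highest of the others. The mean was 0.560 in M0, or 0.446 without that library, and 1.20 in M1. A ratio near 1 depends on the lengths used, and with the longest transcript in place of merged exons the M1 mean was 0.866. Ifnar2 and Il10rb, whose genes lie next to each other, parted further. Their ratio was 0.663 ± 0.0259 in M0, 2.66 ± 0.161 in M1, 0.804 ± 0.0720 in M2 and 1.30 ± 0.0747 in TAM. The groups did not overlap for this ratio, and M0 replicate 1, at 0.689, was close to the other M0 libraries. No test of these ratios was made. For 3 libraries against 3 the smallest p of an exact two-sided permutation test is 0.1.

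**Figure D3:**
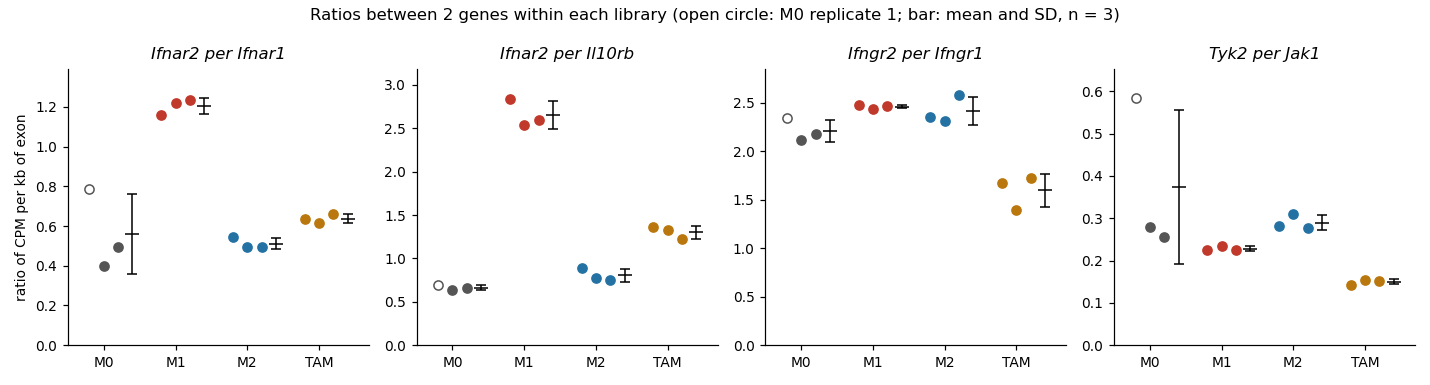
Ratio between pairs of genes within each library, from CPM per kb of merged exon, by group. Points are libraries, the open circle is M0 replicate 1, and bars are the mean and SD of 3 libraries. Ifnar2 per Il10rb lay between 2.54 and 2.84 in M1 and between 0.637 and 0.689 in M0, and Tyk2 per Jak1 was lowest in the TAM libraries.

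The 3 kinase genes together held 21.8, 37.7 and 39.0 CPM per kb in the M0 libraries, 57.5 ± 0.871 in M1 (SD, n = 3), 37.1 ± 1.10 in M2 and 40.5 ± 0.647 in TAM. M1 was highest in every library, and without M0 replicate 1 the M0 mean was 38.3. Jak1 made up 59.4% ± 5.16 of that sum in M0, or 62.4% without that library, 63.1% ± 0.276 in M1, 62.2% ± 1.35 in M2 and 73.7% ± 0.427 in TAM. Jak1 had its largest share in the TAM libraries, each above all others. The share of Tyk2 was 31.2, 17.3 and 16.1% in the M0 libraries, 14.4% ± 0.391 in M1, 18.0% ± 0.718 in M2 and 11.0% ± 0.525 in TAM. The share of Jak2 was 22.4% ± 0.506 in M1 and 15.3% ± 0.930 in TAM. Within each library the ratio of Jak2 to Jak1 was 0.319 ± 0.0285 in M0, 0.355 ± 0.00910 in M1, 0.320 ± 0.0173 in M2 and 0.208 ± 0.0138 in TAM. The TAM libraries, at 0.224, 0.202 and 0.198, lay below all others, M0 replicate 1 (0.287) included.

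**Figure D4:**
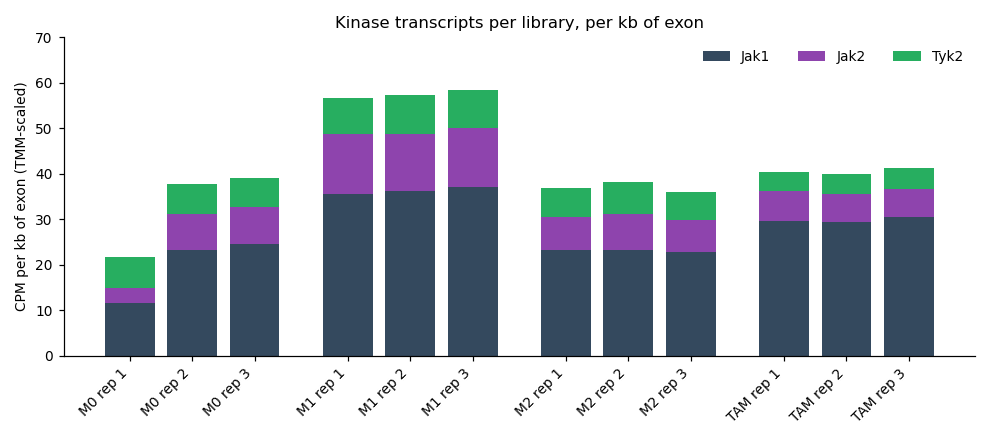
Summed level of Jak1, Jak2 and Tyk2 in each of the 12 libraries, in CPM per kb of merged exon, stacked by gene. The M1 libraries reach 56.7 to 58.4, and the TAM libraries reach 40.0 to 41.2 with Jak1 as the largest part.

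Ifnar2, Il10rb, Ifnar1 and Ifngr2 lie in that order, all on the plus strand, within 192.8 kb of chromosome 16. The gap between Ifnar2 and Il10rb is 0.6 kb, that between Il10rb and Ifnar1 is 59.4 kb and that between Ifnar1 and Ifngr2 is 39.6 kb. In M1 the first of them rose by 0.91 on the log2 scale, the second changed by −1.08, and the others were not called. In TAM Il10rb and Ifngr2 fell and Ifnar2 and Ifnar1 were not called. Without M0 replicate 1 those not called passed the test as well. Ifnar1 was lower (−0.36) and Ifngr2 higher (0.17) in M1, and Ifnar2 was higher (0.26) and Ifnar1 lower (−0.25) in TAM. An annotated read-through gene, Gm21970, covers 9.46% of the exons of Ifnar2 and 14.9% of those of Il10rb, and it had 0 counts in the table. Reads over those exons could have been divided or dropped by the counting, which is not given in the sources used here. The antisense gene 1700084C06Rik covers 8.07% of the exons of Tyk2 and also had 0 counts, and Raver2, on the other strand, shares 4 bp with Jak1 and had 45 counts against 45155 for Jak1.

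Of 25 other genes annotated within 200 kb of this interval, 8 were tested. In M1 none of the 8 rose and Tmem50b and Donson fell, or 2 rose and 3 fell without M0 replicate 1. The share called was 25%, against 25.7% of all genes, and 62.5% in TAM, against 50.5%. Tmem50b, which follows Ifngr2 on the other strand, stood at 34.9 CPM in M0, 19.1 in M1, 36.0 in M2 and 21.5 in TAM. Its log2 change was −0.87 ± 0.09 in M1 (adjusted p = 4.09e-05) and −0.70 ± 0.09 in TAM (adjusted p = 8.69e-05). In TAM Cryzl1 and the antisense gene Gm10785 rose and Tmem50b, Gart and Donson fell, or 3 rose and 4 fell without M0 replicate 1. Cryzl1 went from 42.2 CPM in M0 to 120.8 in TAM, a log2 change of 1.52 ± 0.13 (adjusted p = 4.67e-06). Gart, an enzyme of purine synthesis, had a change of −0.50 ± 0.08 (adjusted p = 0.000435). Cryzl1 and Gm10785 overlap on opposite strands, as do Son and Donson, and without a stated strand setting their reads cannot be told apart.

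**Figure D5:**
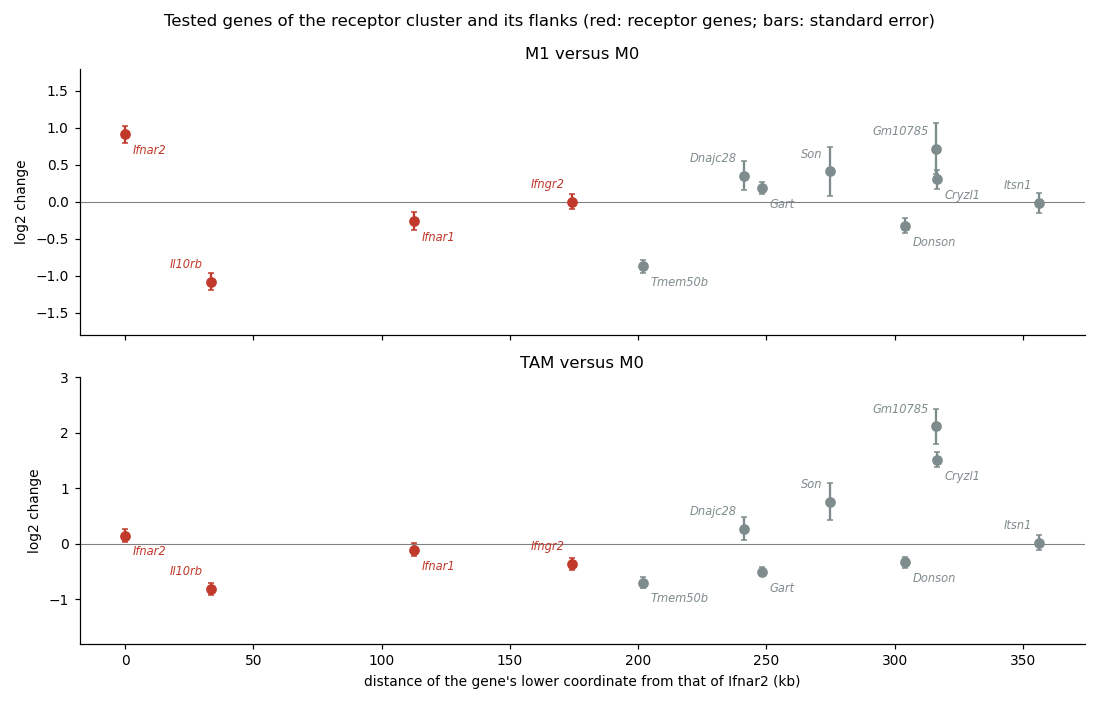
Log2 change and standard error of the tested genes of the receptor cluster (red) and its flanks (grey), by distance in kb from the lower coordinate of Ifnar2, for M1 and TAM against M0. In M1 Ifnar2 (0.91) and its neighbour Il10rb (−1.08) lie on opposite sides of 0, and in TAM Cryzl1 (1.52) and Gm10785 (2.12) lie above 0.

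The other genes of the pathway were counted from lists by role, to be read against 25.7% of all genes called in M1 and 50.5% in TAM, or 47.1% and 66.7% without M0 replicate 1. These lists, too, were chosen with earlier results of these data known, so the shares only describe them. Of 20 ligand genes, 13 had 0 counts in all 12 libraries, among them Ifng, Il12a, Il12b and the alpha interferon genes Ifna1, Ifna2, Ifna4 and Ifna5. For each, 0 counts over the 12 libraries allow a level of up to 0.0131 CPM (3 counts, counting error only). Ifnb1, the beta interferon gene, had 3 counts, all in M1 libraries. Il23a was the only ligand gene that passed the filter, and it is named after its values were seen. It encodes the subunit that pairs with the product of Il12b to form interleukin-23. Its level was 0.205 ± 0.180 CPM in M0 and 3.39 ± 0.437 in TAM (SD, n = 3), a log2 change of 3.93 ± 0.55 (adjusted p = 0.000155). It was not called in M1.

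Of 32 other receptor genes that signal through Janus kinases 18 were tested. In M1 8 rose and 2 fell, or 12 and 2 of 19 without M0 replicate 1. In TAM 8 rose and 2 fell, or 11 and 2 without it. The share called was 55.6% in both media, above that of all genes in M1 and near it in TAM. Il15ra, the interleukin-15 receptor chain, averaged 0.448 CPM in M0 and 5.43 in M1, and its log2 change was 3.60 ± 0.32 (adjusted p = 1.23e-05). Il13ra1 rose by 1.68 ± 0.19 (adjusted p = 9.69e-05) and Osmr, the oncostatin M receptor, by 2.20 ± 0.30 (adjusted p = 0.000376). Cntfr, the receptor of ciliary neurotrophic factor, fell in both, with changes of −1.50 ± 0.14 in M1 (adjusted p = 1.39e-05) and −1.40 ± 0.14 in TAM (adjusted p = 1.04e-05). In TAM Il4ra, the interleukin-4 receptor chain, rose by 1.34 ± 0.17 (adjusted p = 5.77e-05) and Il6ra by 2.85 ± 0.44 (adjusted p = 0.000335). Epor, the erythropoietin receptor, changed by −1.82 ± 0.25 in TAM (adjusted p = 0.000137). Among 6 other receptors of the class to which the interferon receptors belong, Il20rb and Ifnlr1 were tested. In M1 their log2 changes were −0.26 ± 0.17 (adjusted p = 0.285) and 0.64 ± 0.22 (adjusted p = 0.0562).

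Of 6 other Janus and Src-family kinases 5 were tested. Jak3, which serves the common gamma chain of lymphocyte receptors, also rose in M1 and fell in TAM. It stood at 8.85 ± 0.456 CPM in M0, 21.4 ± 1.58 in M1, 12.3 ± 0.989 in M2 and 6.09 ± 0.800 in TAM (SD, n = 3). Its log2 change was 1.27 ± 0.12 in M1 (adjusted p = 1.98e-05) and −0.54 ± 0.13 in TAM (adjusted p = 0.00445). Il2rg, the gene of that common chain, did not pass the filter with 12 libraries. Src was the other gene called in M1, higher by 0.31 ± 0.10 (adjusted p = 0.0367). In TAM Fyn rose by 1.48 ± 0.08 (adjusted p = 2.1e-07) and Lyn changed by −0.43 ± 0.12 (adjusted p = 0.0130). The counts without M0 replicate 1 were 3 higher in M1, and 2 higher and 2 lower in TAM.

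Of 8 STAT genes and partners counted here 7 were tested, and 4 rose in M1 and none fell, or 5 and 1 without M0 replicate 1. Irf1 rose by 5.59 ± 0.16 (adjusted p = 1.61e-09), Stat2 by 4.48 ± 0.16 (adjusted p = 5.12e-09), Irf9, a partner of STAT2 in the type I response, by 3.27 ± 0.16 (adjusted p = 8.88e-08) and Stat3 by 2.27 ± 0.13 (adjusted p = 3.42e-07). Beside them the rises of Ifnar2, Jak1, Jak2 and Tyk2 in M1 reached at most 1.00, for Jak2, or 1.07, for Ifnar2, without M0 replicate 1. Il12rb1, at 6.58, rose by more than Irf1. In TAM Stat3 rose by 0.57 ± 0.13 (adjusted p = 0.00375), while Stat5a and Irf1 changed by −0.65 ± 0.14 (adjusted p = 0.00322) and −0.41 ± 0.14 (adjusted p = 0.0296), 1 higher and 2 lower, or 1 and 3 without M0 replicate 1. In M2 0 of the 7 were called with 12 libraries. Without M0 replicate 1 Stat3 was called higher there, by 0.67 ± 0.05 (adjusted p = 6.76e-14), 1 of 7 against 0.341% of genes tested.

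The last list held 24 regulators, most of them inhibitors, together with Sh2b1, an adaptor that enhances Jak2 activity, and the adaptors Stam and Stam2. Of these 23 were tested. In M1 4 rose and 2 fell, or 5 and 9 without M0 replicate 1, and in TAM 9 rose and 3 fell, or 9 and 5. The shares called with 12 libraries, 26.1% and 52.2%, were near those of all genes. Usp18, which displaces Jak1 from Ifnar2, rose in M1, from a mean of 1.34 CPM to 75.5, by 5.83 ± 0.24 on the log2 scale (adjusted p = 1.59e-08). Socs1, an inhibitor of the Janus kinases, went from 0.980 to 65.7 CPM, 6.05 ± 0.32 (adjusted p = 1.28e-07). Socs3 rose by 1.91 ± 0.16 (adjusted p = 9.14e-06), and Socs2 changed by −2.24 ± 0.22 (adjusted p = 2.26e-05). The others called in M1 were Btrc, higher, and Pias4, lower, named after their values were seen. In TAM Ptpn6, a phosphatase that acts on cytokine receptors, changed by −2.47 ± 0.20 (adjusted p = 2.88e-06) and Stam, an adaptor that binds Janus kinases, by 1.79 ± 0.25 (adjusted p = 0.000157). Socs5 rose there by 0.82 ± 0.16 (adjusted p = 0.00124) and Sh2b1 changed by −0.43 ± 0.08 (adjusted p = 0.00165). Ptpn1, the closest relative of Ptpn2, was not called in M1 (−0.15 ± 0.10, adjusted p = 0.276) or in TAM (−0.24 ± 0.10, adjusted p = 0.0556, or 0.0107 without M0 replicate 1). In M2 0 of the 23 were called with 12 libraries. Without M0 replicate 1 Socs3 was called higher there, by 0.50 ± 0.11 (adjusted p = 0.0182), 1 of 23 against 0.341% of genes tested.

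For each of the 10 genes the most similar profiles were sought by the Pearson correlation of log2 CPM over the 12 libraries, which fall into 4 groups and are shared by all profiles, among 11066 genes. The closest to Il12rb1 were Ifit3b (0.990), Prph (0.989) and Tap2 (0.989), and the closest to Ifnar2 were Unc93b1 (0.987), Shisa5 (0.987) and Mcub (0.986). Jak1 was most like Runx1 (0.995), H2-T24 (0.994) and Magi3 (0.992), and Jak2 most like Plekhg1 (0.993), Fchsd2 (0.990) and Usp25 (0.990). For these 4 genes the correlation without M0 replicate 1 stayed between 0.981 and 0.990. Ptpn2 was most like Cyp1a1 (0.993), Tars (0.984) and Calcoco1 (0.979), and Tyk2 most like Myrfl (0.984), Ints4 (0.983) and Inppl1 (0.983). Il10rb was most like Nap1l1 (0.987), Adi1 (0.985) and Pomk (0.982), Ifnar1 most like Slc16a1 (0.981), Washc5 (0.975) and Rhoq (0.972), and Ifngr2 most like Rbfa (0.978), Scaf1 (0.970) and Bcs1l (0.970). Ifngr1 had the weakest matches of the 10, Axin1 (0.911), Tmem198 (0.910) and Smap2 (0.902). Read counts of Ifit3b and H2-T24 are uncertain where reads match near-identical relatives.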

How the data were processed

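The authors deposited raw read counts per Ensembl gene for the 12 libraries, per the labels from total RNA extracted with Trizol and Illumina mRNA libraries. HISAT2 2.0 and mm10 appear, without a role, in the submitters' processing notes, and no counter, annotation release, strand setting or filter is given in those sources. TAM replicate 2 has a misspelt title and was placed by its treatment label. Symbols came from GENCODE M21 (GRCm38), which matched 55141 of the IDs, and give coordinates and merged exon lengths.

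The test was edgeR 4.0.16 under R 4.3.3 (filterByExpr, TMM, robust quasi-likelihood fit of all 12 libraries with 1 mean per group). The p-values were adjusted over 14591 genes, or 14968 without M0 replicate 1, and called under 0.05. SE is the log2 change divided by the square root of F. CPM is TMM-scaled, except marker sums, which use library totals. Steps were tested on simulated counts. Alternatives used other scalings, filters, DESeq2 1.42.0, limma-voom 3.58.1, only the groups compared, a replicate block, and leaving out each library. The 10 genes and the lists were chosen with earlier results of these data known. A gene of the lists is not reported here and is in no list count. All 10 were described. From each list up to 4 genes with the smallest adjusted p in M1 and in TAM were named among those called with a mean of at least 1 CPM. For each of the 10, the 3 most correlated genes with a mean of at least 1 CPM were named, without predicted genes, Riken clones or pseudogenes.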

Additional observations from a re-analysis of the deposited data

How the results depend on the processing

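Over 22 alternatives, 47 pairs of a gene and a comparison were followed, those called with all 12 libraries or without M0 replicate 1. Of the 28 called with all libraries, all 28 were called in the same direction without M0 replicate 1, 0 reversed in any alternative and 11 lost the call in at least 1. Without M0 replicate 1, 19 further pairs were called.

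With only the groups compared in the fit, the number of genes called was 3 for M1 versus M0, 3 for TAM versus M0, 10 for TAM versus M1, 8 for TAM versus M2 and 8 for M1 versus M2. In that fit Jak1, Jak2, Tyk2 and Ptpn2 lost their calls in M1, and Ifngr2, Il12rb1 and Jak1 in TAM. Leaving out each library in turn gave 6 to 9 for M1 versus M0, 0 to 1 for M2 versus M0, 5 to 10 for TAM versus M0, 5 to 10 for TAM versus M1, 3 to 9 for TAM versus M2 and 4 to 8 for M1 versus M2, the upper end in each case without M0 replicate 1. Leaving out that library also moved the share of all genes called, for TAM versus M1 from 43% to 70.1%. For the other alternatives that share is not given, so shifts in these counts cannot be read as particular to the 10 genes. Ifngr2 in M1 versus M0, at −0.00075 with all libraries, was above 0 under DESeq2 (0.022), limma-voom (0.0091), RLE factors (0.022), library totals (0.047), no filter (0.051), the filter of 1 CPM in 3 samples (0.0031) and the fit of 2 groups (0.043), below 0 with upper-quartile factors (−0.064), and lay between −0.082 and 0.17 when single libraries were left out. Jak2 in TAM versus M0 was 0.048 with limma-voom and lay between −0.38 and 0.14 when single libraries were left out.

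Replicate numbers showed no visible pairing of the libraries, though such correlations cannot tell whether same-numbered libraries were made together. Over 18 same-numbered pairs the correlation of deviations from the group means had a median of −0.019 (−0.129 to 0.163), and 1 exceeded 0.1. Over 36 differently numbered pairs the median was 0.010 (−0.173 to 0.148), and 3 exceeded 0.1. With a replicate block 7 genes were called for M1 versus M0, 6 for TAM versus M0, 6 for TAM versus M1, 4 for TAM versus M2, 4 for M1 versus M2 and 0 for M2 versus M0, and Ifngr2 in M1 changed by 0.0045. The block without M0 replicate 1, added after the data had been seen, gave 9, 10, 10, 9, 8 and 1, and 0.17 for Ifngr2. Shares over all genes are not given for the block fits.

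Libraries of 3 per group and the spread set by M0 replicate 1 limit what the fit of 12 can call. With longest transcripts in place of merged exons, 31 of 40 levels per kb moved by over 1 SD.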
